A study of Homo sapiens with 24 samples.

Results

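The RGS genes encode the regulators of G protein signalling, and 10 of them were described here in U251 cells, a human glioblastoma line, treated with G-1, a synthetic agonist of the G protein-coupled estrogen receptor GPER. The members were *RGS2*, *RGS3*, *RGS4*, *RGS5*, *RGS10*, *RGS12*, *RGS14*, *RGS16*, *RGS17* and *RGS20*, 10 genes with 15 probes among the 24847 genes with a symbol on the array. *RGS16* entered the list for its rise at the lower dose at 72 h, that is, it was chosen by its difference between G-1 IC50 and DMSO at 72 h, so its differences that use the G-1 IC50 72 h arrays are given as a description, without a test. The other members were tested in a fit across all probes. Cells were exposed to the vehicle DMSO (0.1% per the labels), to G-1 at its IC50, the dose that inhibits growth by 50%, or to G-1 1 µM, for 24 h or 72 h, with 4 independent cultures and 1 single-colour Agilent array per culture, 24 arrays in all. All groups, DMSO included, were kept in medium stripped of steroid hormones before treatment. A single cell line was studied.

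An RGS protein binds an active G protein α subunit and speeds up its hydrolysis of GTP, which ends the signal from a receptor sooner. The R4 subfamily (here *RGS2*, *RGS3*, *RGS4*, *RGS5* and *RGS16*) holds small proteins that act on Gαi/o and Gαq, with *RGS2* known for its preference for Gαq. The RZ subfamily (*RGS17* and *RGS20*) acts on Gαi/o and Gαz, and the R12 subfamily (*RGS10*, *RGS12* and *RGS14*) on Gαi/o. Transcription of several R4 genes is known to respond to receptor signalling, so that they take part in feedback.

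The promoters of *RGS2*, *RGS16* and *RGS17* are shown because these genes hold results below and have a single listed start site, whereas *RGS4* has more than 1. Each line gives the 250 bases before the RefSeq start site, 5′ to 3′ on the strand of the gene, from build GRCh38.p14. *RGS2* lies at chr1:192808789-192809038 on the plus strand, *RGS16* at chr1:182604390-182604639 on the minus strand and *RGS17* at chr6:153131283-153131532 on the minus strand. Capitals mark GC boxes (GGGCGG, or CCGCCC on the opposite strand) and, in *RGS2*, the cAMP response element half-site TGACG, read on the opposite strand as CGTCA.
RGS2: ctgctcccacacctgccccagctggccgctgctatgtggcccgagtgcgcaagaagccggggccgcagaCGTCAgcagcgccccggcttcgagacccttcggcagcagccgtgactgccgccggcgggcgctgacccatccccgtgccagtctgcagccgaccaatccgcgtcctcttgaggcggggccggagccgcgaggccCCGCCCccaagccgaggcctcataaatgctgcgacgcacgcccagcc
RGS16: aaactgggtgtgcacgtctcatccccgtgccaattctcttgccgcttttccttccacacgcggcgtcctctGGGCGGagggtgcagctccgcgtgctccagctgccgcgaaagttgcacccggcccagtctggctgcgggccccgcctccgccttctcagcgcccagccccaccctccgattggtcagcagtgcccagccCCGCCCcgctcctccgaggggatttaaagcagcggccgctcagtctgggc
RGS17: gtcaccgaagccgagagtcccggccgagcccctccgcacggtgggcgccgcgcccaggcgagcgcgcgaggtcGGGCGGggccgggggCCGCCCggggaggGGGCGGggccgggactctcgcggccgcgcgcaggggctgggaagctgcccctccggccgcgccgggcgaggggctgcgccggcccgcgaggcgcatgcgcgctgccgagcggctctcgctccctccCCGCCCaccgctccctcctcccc
The half-site of *RGS2* starts 181 bases and its GC box 47 bases before the start site. *RGS16* holds GC boxes at 179 and 50 bases, and *RGS17* at 177, 162, 149 and 23 bases. Both strands were searched in the promoters of all genes. A GC box is held by 42.6% of the 35116 promoters and by 10 of the 22 listed for the members, and the half-site, which is also part of the full element TGACGTCA, by 21.2% and by 5 of 22. These matches describe the windows only. On chromosome 1, which carries 4 of the 10 members, *RGS4* lies beside *RGS5* and *RGS16* beside *RGS8* with 0 protein-coding genes between them.

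Values are log2 signals scaled so that 0 is the 75th percentile of an array and a difference of 1 is a doubling. Levels were compared only within a probe. A probe was tested if 1 group or more had it well above background on each of its 4 arrays. All 10 members had a tested probe, 13 of their 15 probes were tested, and 9 probes were well above background on all 24 arrays. The second probe of *RGS3* was above background on no array, and another probe of *RGS5* was not tested. The members below are described by the brightest probe of each gene, and a member is called changed when its adjusted p in the limma fit was under 0.05. In bulk RNA, fewer cells with a transcript and less transcript per cell cannot be told apart. Glioma and astroglial markers (5 of 5, *VIM*, *NES*, *CD44*, *GFAP* and *S100B*) were above background on all 24 arrays. So were 3 of 4 neuronal markers, 1 of 3 microglial markers (*CSF1R*), 1 of 5 pericyte markers, 1 of 4 oligodendrocyte markers and 0 of 4 endothelial markers. *PTPRC*, *AIF1*, *PECAM1* and *CLDN5* were above background on no array, while the endothelial markers *VWF* and *CDH5* were above it on 23 and 16 arrays. All 8 G-1 1 µM arrays were hybridized on the third slide and scanned in a second session, so the difference of this dose from DMSO or G-1 IC50 at 1 duration cannot be told apart from slide and session by the design alone. Contrasts without a constant offset of that kind were the 72 h against the 24 h arrays of G-1 1 µM, and the interaction of this dose with duration, which is the 72 h difference from DMSO minus the 24 h difference. The first of these, and the interaction of G-1 IC50 with duration, were added after values had been seen.

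**Figure D1:**
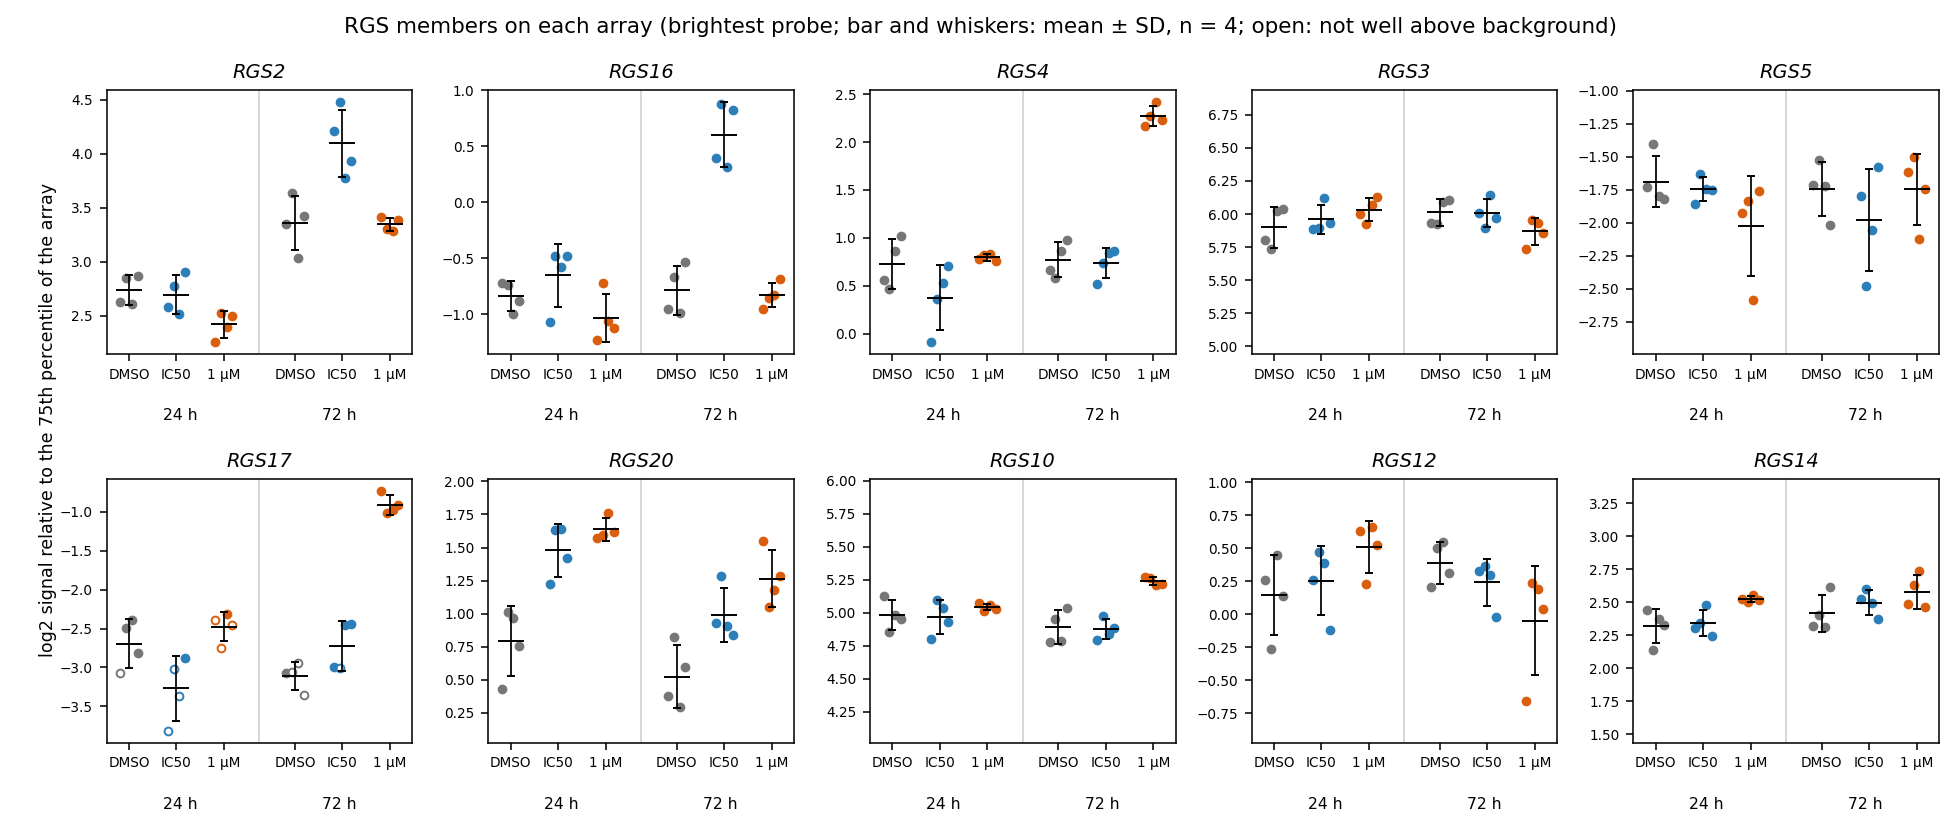
Each panel plots 1 RGS gene, with the log2 signal of its brightest probe, less the 75th percentile of each array, on the vertical axis (scales differ) and the 6 groups on the horizontal axis. Points are arrays, open where the probe was not well above background, and bars with whiskers are mean ± SD (n = 4). *RGS2* and *RGS16* were highest in G-1 IC50 at 72 h, and *RGS4* and *RGS17* in G-1 1 µM at 72 h, in each case without overlap with any other group.

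Within the R4 subfamily, *RGS16* and *RGS2* were highest after 72 h of G-1 IC50, and *RGS4* after 72 h of G-1 1 µM. *RGS16* encodes a small regulator of Gαi/o and Gαq. At 72 h its 4 DMSO arrays read -0.95, -0.67, -0.99 and -0.54, the G-1 IC50 arrays 0.40, 0.88, 0.31 and 0.83, and the G-1 1 µM arrays -0.95, -0.85, -0.83 and -0.68. The G-1 IC50 arrays all lay above both other groups, which overlapped each other. At 24 h the DMSO arrays read -0.72, -0.74, -1.0 and -0.88, the G-1 IC50 arrays -1.07, -0.48, -0.57 and -0.48, and the G-1 1 µM arrays -1.22, -0.72, -1.06 and -1.12, and the 3 groups overlapped. The G-1 IC50 arrays at 72 h were 1.39 (SE 0.15) above DMSO on the log2 scale, a fold change of 2.62, and this is the difference that chose the gene. Within slide 1 the difference was 1.48 and within slide 2 it was 1.49.

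The G-1 1 µM arrays of *RGS16* differed from DMSO by -0.04 at 72 h (95% interval -0.35 to 0.27), a value given as a description because it rests on the DMSO arrays of the difference that chose the gene. On the 24 h arrays, which its choice did not use, *RGS16* did not pass the test. G-1 1 µM differed from DMSO by -0.20 (adjusted p = 0.335) and G-1 IC50 by 0.18 (adjusted p = 0.997). G-1 1 µM differed from G-1 IC50 by -0.38 (adjusted p = 0.0653), which passed with the 50th percentile, with either replicate block and in 2 of the 8 fits without 1 array. A second probe of the same transcript was dim. It was well above background on 0 of 4 DMSO and 0 of 4 G-1 1 µM arrays at 72 h but on all 4 G-1 IC50 arrays, where it read -2.21, -2.20, -2.13 and -2.29. The DMSO arrays were set to their lowest signal well above background, or to the probe's own where that was higher. On that floor the level of the probe was 2.07-fold higher in G-1 IC50. The second probe passed the filter only through these G-1 IC50 arrays, and the comparison is the one that chose the gene. Its value is therefore a description and no separate support. With normexp background correction the difference of the bright probe was 0.96.

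*RGS2*, the regulator that prefers Gαq, rose with time in culture and further with G-1 IC50 at 72 h. Its DMSO arrays read 2.62, 2.85, 2.61 and 2.87 at 24 h and 3.35, 3.64, 3.04 and 3.42 at 72 h. Its G-1 IC50 arrays read 2.58, 2.78, 2.52 and 2.91 at 24 h and 4.21, 4.48, 3.77 and 3.93 at 72 h. Its G-1 1 µM arrays read 2.26, 2.53, 2.40 and 2.50 at 24 h and 3.41, 3.30, 3.29 and 3.38 at 72 h. The G-1 IC50 arrays at 72 h lay above all others, the DMSO and G-1 1 µM arrays at 72 h overlapped each other and lay above the 24 h arrays. At 24 h the G-1 IC50 arrays overlapped both other groups, whereas the G-1 1 µM arrays all lay below the DMSO arrays. In DMSO the rise from 24 h to 72 h was 0.62 (SE 0.13, adjusted p = 0.0149), and *RGS2* was the 1 of 10 members called in that comparison, in which 3.29% of the 14235 genes tested were called. This call was lost without replicate 3 of DMSO at 24 h or replicate 2 of DMSO at 72 h (lowest difference 0.53, highest adjusted p = 0.054). The 10 members compared over time in DMSO include *RGS16* as a description, because DMSO at 72 h took part in its choice.

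At 72 h, G-1 IC50 raised *RGS2* above DMSO by 0.74 (SE 0.13, fold change 1.67, adjusted p = 0.00697). It was the 1 of 9 members called in this comparison, *RGS16* left out, against 0.885% of all genes tested. The difference was 0.95 within slide 1 and 0.78 within slide 2. The call held with each of the 8 arrays left out in turn (0.61 to 0.84, highest adjusted p = 0.037) but was lost in a fit on the arrays of this comparison alone (adjusted p = 0.157). At the higher dose *RGS2* differed from DMSO by -0.02 (95% interval -0.30 to 0.26, adjusted p = 0.924), and it was 0.75 lower in G-1 1 µM than in G-1 IC50 (SE 0.13, adjusted p = 6.44e-05). At 24 h the doses differed from DMSO by -0.04 (adjusted p = 0.998) and -0.32 (adjusted p = 0.0812), and the latter passed under 4 of 12 alternatives (normexp correction, the arrays compared alone and both replicate blocks). The difference of G-1 IC50 from DMSO was 0.78 larger at 72 h than at 24 h (SE 0.19, adjusted p = 0.416). That interaction called 0 of 9 members by limma, 2 at an unadjusted p under 0.05, against 0.014% of all genes (0% past 2-fold).

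*RGS4*, a regulator of Gαi/o and Gαq known from brain, stood highest with the higher dose at 72 h. At 72 h its DMSO arrays read 0.67, 0.58, 0.87 and 0.98, the G-1 IC50 arrays 0.52, 0.74, 0.84 and 0.86, and the G-1 1 µM arrays 2.17, 2.27, 2.42 and 2.23. At 24 h the DMSO arrays read 0.57, 0.47, 0.87 and 1.02, the G-1 IC50 arrays -0.09, 0.37, 0.53 and 0.71, and the G-1 1 µM arrays 0.78, 0.82, 0.84 and 0.76. The G-1 1 µM arrays at 72 h lay above all other arrays, and each of the other groups overlapped its neighbour in the order of means. The rise over DMSO was 1.50 (SE 0.14, fold change 2.82, adjusted p = 1.46e-08) and over G-1 IC50 1.53 (adjusted p = 1.22e-08). On the third slide alone, the 72 h arrays of G-1 1 µM were 1.47 above those of 24 h (SE 0.14, adjusted p = 6.87e-08), whereas DMSO changed by 0.04 over the same time (adjusted p = 0.906). The interaction with duration was 1.43 (SE 0.20, adjusted p = 2.08e-05).

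*RGS3* and *RGS5*, the remaining R4 members, had no call with their brightest probe. *RGS3* group means lay between 5.87 and 6.03 and overlapped throughout, and its difference from DMSO was at most 0.14 in size (G-1 1 µM at 72 h, -0.14, 95% interval -0.32 to 0.03, adjusted p = 0.134). With quantile normalization that difference was called. Between the doses at 72 h *RGS3* was called lower in G-1 1 µM under 3 of 12 alternatives (quantile normalization, the 50th percentile and normexp correction). Both replicate blocks called its interaction of G-1 1 µM with duration, and 1 of them its change in G-1 1 µM over time. *RGS5*, known from pericytes, lay between -2.02 and -1.69, and G-1 1 µM differed from DMSO by -0.34 at 24 h (adjusted p = 0.177). Its probes disagreed. A second probe, for another transcript, fell by 0.64 at 24 h with G-1 1 µM (SE 0.15, adjusted p = 0.0039), from -1.45, -1.85, -1.86 and -1.46 in DMSO to -2.62, -2.55, -1.90 and -2.09, the first of these not well above background.

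Of the RZ members, *RGS17* and *RGS20* were both higher in G-1 1 µM than in DMSO, *RGS17* at 72 h and *RGS20* at both durations. *RGS17* was dim. At 72 h its DMSO arrays read -3.07, -3.06, -2.94 and -3.36 (1 of 4 well above background), the G-1 IC50 arrays -3.0, -3.01, -2.46 and -2.44 (3 of 4), and the G-1 1 µM arrays -0.73, -1.02, -0.97 and -0.92 (4 of 4). At 24 h the DMSO arrays read -3.08, -2.49, -2.39 and -2.81 (3 of 4), the G-1 IC50 arrays -3.81, -3.03, -3.37 and -2.87 (1 of 4), and the G-1 1 µM arrays -2.39, -2.75, -2.31 and -2.46 (1 of 4). The G-1 1 µM arrays at 72 h lay above all others. They were 2.20 above DMSO (SE 0.19, adjusted p = 3.35e-09) and 1.82 above G-1 IC50 (adjusted p = 5.32e-08). The probe was tested only because it was well above background on all 4 of these arrays, as in no other group. The *RGS17* calls with these arrays, and the counts below that include them, are therefore not independent of that filter. On the third slide the rise from 24 h to 72 h was 1.57 (SE 0.19, adjusted p = 1.17e-06), and the interaction with duration was 1.98 (SE 0.26, adjusted p = 1.20e-05).

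The size of the *RGS17* differences rests on values near background, and the levels near background differed between sessions. The 30396 probes that were above background on no array had a median difference of 0.39 between G-1 1 µM and DMSO at 72 h and of 0.55 at 24 h. Under normexp correction the *RGS17* rise over DMSO at 72 h was 0.77 (adjusted p = 1.16e-09), that over G-1 IC50 0.73 (adjusted p = 3.46e-09), the rise from 24 h to 72 h on the third slide 0.47 (adjusted p = 9.64e-06) and the interaction 0.51 (adjusted p = 0.000376), each under 2-fold. At 24 h *RGS17* was 0.79 higher in G-1 1 µM than in G-1 IC50 (SE 0.19, adjusted p = 0.0040), a comparison in which the same probes differed by 0.70. The part of the background in that call was not tested.

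*RGS20* was the member that stood above DMSO with both doses at 24 h. Its DMSO arrays then read 0.43, 1.01, 0.96 and 0.75, the G-1 IC50 arrays 1.22, 1.63, 1.64 and 1.42, and the G-1 1 µM arrays 1.57, 1.59, 1.76 and 1.62. At 72 h they read 0.38, 0.82, 0.29 and 0.60 in DMSO, 0.93, 1.29, 0.90 and 0.84 in G-1 IC50, and 1.55, 1.05, 1.18 and 1.28 in G-1 1 µM. At each duration all arrays of both doses lay above all DMSO arrays, and the doses overlapped each other. In G-1 1 µM it was 0.85 above DMSO at 24 h (SE 0.14, adjusted p = 0.000296) and 0.74 above it at 72 h (SE 0.14, adjusted p = 0.000128). These differences cannot be told apart from slide and session, which all G-1 1 µM arrays shared. G-1 IC50 raised *RGS20* by 0.69 at 24 h (SE 0.14, adjusted p = 0.0498), and at 72 h the difference of 0.47 did not pass (adjusted p = 0.194). At 24 h the difference was 0.92 within slide 1 but 0.30 within slide 2, which held 1 DMSO array of that duration. The 24 h call at G-1 IC50 was close to the threshold and was lost in 6 of the 8 fits that left out 1 array (0.57 to 0.77, adjusted p between 0.031 and 0.251), with replicate 1, 3 or 4 of DMSO or replicate 2, 3 or 4 of G-1 IC50 left out. It was also lost under 9 of 13 alternatives, the slide as a block among them. Between the doses *RGS20* differed by 0.16 at 24 h (95% interval -0.14 to 0.45, adjusted p = 0.436) and by 0.28 at 72 h (95% interval -0.02 to 0.57, adjusted p = 0.0972). In G-1 1 µM its level was 0.37 lower at 72 h than at 24 h (adjusted p = 0.0433), a call lost in 7 of the 8 fits without 1 array and under 7 of 12 alternatives. In DMSO *RGS20* differed by -0.27 over the same time (adjusted p = 0.333), and the interaction was -0.10 (adjusted p = 0.742).

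Of the R12 members, *RGS10* and *RGS12* were called with G-1 1 µM at 72 h and *RGS14* was not. *RGS10*, which consists of little more than the RGS domain, read 4.78, 4.96, 4.79 and 5.04 in DMSO and 5.27, 5.26, 5.21 and 5.22 in G-1 1 µM at 72 h, without overlap. The difference was 0.35 (SE 0.07, fold change 1.28, adjusted p = 0.000299), and against G-1 IC50 it was 0.37 (adjusted p = 0.00021). *RGS10* also passed for the interaction with duration (0.29, SE 0.10, adjusted p = 0.0394), a call lost in 10 of the 16 fits without 1 array. *RGS12*, a large protein that also carries a GoLoco motif for Gαi, read 0.21, 0.50, 0.55 and 0.31 in DMSO and -0.65, 0.24, 0.19 and 0.04 in G-1 1 µM at 72 h, and the groups overlapped. It fell by 0.44 (SE 0.18, adjusted p = 0.0382), while its second probe differed by -0.34 (adjusted p = 0.0575). The call was lost under 4 of 12 alternatives and in 3 of the 8 fits without 1 array, the difference being -0.24 without replicate 1 of G-1 1 µM (adjusted p = 0.202). Its interaction with duration was -0.80 (SE 0.25, adjusted p = 0.0204) and that of its second probe -0.58 (adjusted p = 0.045). *RGS14*, which has a GoLoco motif and Ras-binding domains, had group means between 2.32 and 2.58, and G-1 1 µM differed from DMSO by 0.20 at 24 h (adjusted p = 0.0641) and by 0.16 at 72 h (adjusted p = 0.0838).

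**Figure D2:**
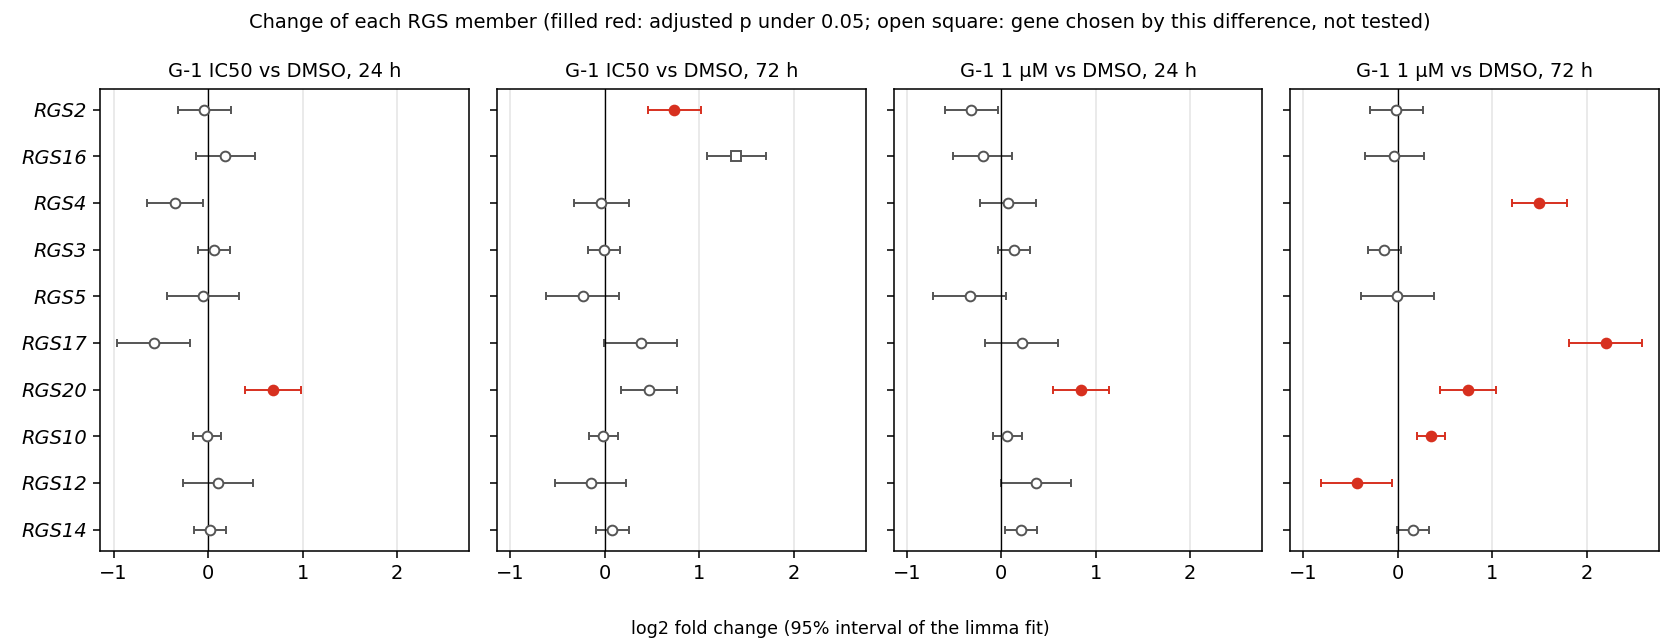
The 4 panels plot, for each RGS member, the log2 fold change from DMSO (horizontal axis) with its 95% interval from the limma fit, for each dose and duration. Filled red points have an adjusted p under 0.05, and the open square is *RGS16* in the comparison that chose it. Calls numbered 1 of 10 (*RGS20*) at 24 h with either dose, 1 of 9 (*RGS2*) at 72 h with G-1 IC50 and 5 of 10 at 72 h with G-1 1 µM. The last count includes *RGS16*, which was not called and is a description there. Of all genes tested, G-1 IC50 called 0.246% at 24 h and 0.885% at 72 h, and G-1 1 µM 30.6% and 66.2%.

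Counted over the members, G-1 IC50 at 24 h called 1 of 10, *RGS20*, against 0.246% of all genes tested. G-1 1 µM at 24 h called *RGS20* alone by the brightest probe, 1 of 10, against 30.6% of all genes. At 72 h G-1 1 µM called 5 of 10, *RGS16* being counted as not called. *RGS4*, *RGS17*, *RGS20* and *RGS10* were higher and *RGS12* lower, against 66.2% of all genes called. The median change of the members there was 0.08, beside 0.03 over all genes tested. *RGS4* and *RGS17* also changed more than 2-fold, as did 12.3% of all genes, although under normexp correction *RGS17* did not. The members' share of calls with G-1 1 µM was therefore not above the background at either duration. With quantile normalization the split at 72 h was 4 higher and 2 lower, and with normexp correction that at 24 h was 2 higher and 1 lower. Past 2-fold as well, the members called numbered 0 of 10 for G-1 IC50 at 24 h (0.0632% of all genes), 0 of 9 for G-1 IC50 at 72 h (0.112%), 0 of 10 for G-1 1 µM at 24 h (1.69%) and 0 of 10 for DMSO over time (0.169%), while their limma counts at an unadjusted p under 0.05 were 3, 2, 3 and 2. These comparisons share the DMSO arrays of their duration. The DMSO arrays of 72 h also took part in the choice of *RGS16*. Where a count of 10 uses those arrays, *RGS16* stands in it as a description and not as a separate test.

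Between the doses, G-1 1 µM exceeded G-1 IC50 at 24 h in 2 of 10 members, *RGS4* (0.42, adjusted p = 0.0319) and *RGS17*, against 26.6% of all genes. The *RGS4* call was lost in 5 of the 8 fits without 1 array, and *RGS4* was lowest in G-1 IC50 at 24 h. The *RGS17* call rested on values near background and was lost with the 50th percentile. At 72 h *RGS4*, *RGS17* and *RGS10* were higher and *RGS2* lower in G-1 1 µM, 4 of 9 against 65.1% of all genes, and *RGS4* and *RGS17* passed 2-fold (11.4% of all genes), whereas at 24 h 0 of 10 did (1.43%), 4 of 10 having an unadjusted p under 0.05 in limma. Scaling to the 50th percentile moved the median of all genes between the doses by over 0.1 (from 0.05 to -0.12 at 24 h and from 0.05 to -0.11 at 72 h). It then called 0 members higher and 1 lower at 24 h, and 3 higher and 3 lower at 72 h, where quantile normalization and normexp correction each called 3 higher and 2 lower. The interaction of the higher dose with duration called 4 of 10 members (*RGS4*, *RGS17* and *RGS10* positive, *RGS12* negative), against 34.1% of all genes, and *RGS4* and *RGS17* past 2-fold against 6.29%. *RGS16* is among these 10 as a description, because the DMSO arrays of 72 h enter the interaction. On the third slide alone, 6 of 10 members changed from 24 h to 72 h of G-1 1 µM (*RGS2*, *RGS4*, *RGS10* and *RGS17* higher, *RGS12* and *RGS20* lower), against 43.2% of all genes, and in each fit without 1 array 4 did. The *RGS10* call was lost in each of the 8 fits without 1 array (adjusted p between 0.051 and 0.077) and under 5 of 12 alternatives. Quantile normalization and normexp correction each called 4 higher and 1 lower in this comparison, and the 50th percentile 3 higher and 1 lower. *RGS4* and *RGS17* passed 2-fold there too, against 5.09%, although under normexp correction *RGS17* did not.

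Of the 11 other numbered RGS genes, 5 had a tested probe. *RGS8*, an R4 gene beside *RGS16*, read -2.02, -1.29, -2.24 and -1.74 in DMSO, -0.53, -0.47, -0.55 and -0.59 in G-1 IC50 and -2.55, -4.92, -3.42 and -2.75 in G-1 1 µM at 72 h. The G-1 IC50 arrays lay above the rest, and the G-1 1 µM arrays, none of them well above background, lay below. Against DMSO the G-1 IC50 difference of 1.29 (SE 0.36) did not pass (adjusted p = 0.134). *RGS8* was at least 1.94-fold lower in G-1 1 µM than in DMSO (adjusted p = 0.000663) and at least 4.73-fold lower than in G-1 IC50 (adjusted p = 8.10e-07). A second *RGS8* probe, for another transcript, was above background on no array.

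Of the R7 genes, whose proteins pair with the Gβ5 subunit, *RGS7* rose and *RGS9* and *RGS11* fell with G-1 1 µM at 72 h. *RGS7* read -1.02, -0.83, -0.64 and -0.87 in DMSO and 0.54, 0.02, 0.52 and 0.41 in G-1 1 µM at 72 h, a rise of 1.21 (SE 0.15, adjusted p = 7.44e-07), and it was 0.78 higher at 24 h (adjusted p = 0.00090). *RGS7* was called neither in the interaction with duration nor between 72 h and 24 h of G-1 1 µM. Its differences from DMSO therefore cannot be told apart from slide and session. *RGS9* was well above background on none of the 4 G-1 1 µM arrays at 72 h. With the floor used for *RGS8* it was 1.90-fold lower than in DMSO (adjusted p = 3.08e-05 in limma on the measured values). Over 11 alternatives the log2 difference ranged from -1.54 to -0.33. *RGS11* was 0.56 higher at 24 h (adjusted p = 0.0494) and 0.61 lower on the log2 scale at 72 h (log2 difference -0.61, adjusted p = 0.0154). The 24 h call was lost in 6 of the 8 fits without 1 array (adjusted p up to 0.166) and with the 50th percentile, and the 72 h call in 2 of 8 (adjusted p up to 0.0717). *RGS19*, the third RZ gene, fell by 0.31 at 72 h (adjusted p = 0.000122). *RGS1*, *RGS6*, *RGS13*, *RGS18*, *RGS21* and *RGS22* were above background on no array.

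Of the proteins that RGS proteins work with, the Gαz subunit gene *GNAZ* and *GNG7*, a G protein γ subunit gene, were both lowest after 72 h of G-1 1 µM. *GNAZ*, a target of the RZ proteins, read 2.92, 3.14, 2.77 and 3.20 in DMSO and 1.37, 1.09, 0.96 and 1.42 in G-1 1 µM at 72 h, and fell by 1.80 (SE 0.12, adjusted p = 2.10e-10). *GNG7* read 1.44, 1.50, 1.15 and 1.69 in DMSO and -1.08, -1.06, -1.21 and -0.64 in G-1 1 µM, and fell by 2.44 (SE 0.14, adjusted p = 1.14e-11). *GRK3*, a receptor kinase, fell by 1.20 (SE 0.16, adjusted p = 1.64e-06). *ADCY5*, an adenylyl cyclase, was above background on 3 of 4 DMSO arrays and on 0 of 4 G-1 1 µM arrays at 72 h. With the floor used for *RGS8* it was 1.12-fold lower (adjusted p = 0.000364 in limma on the measured values).

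**Figure D3:**
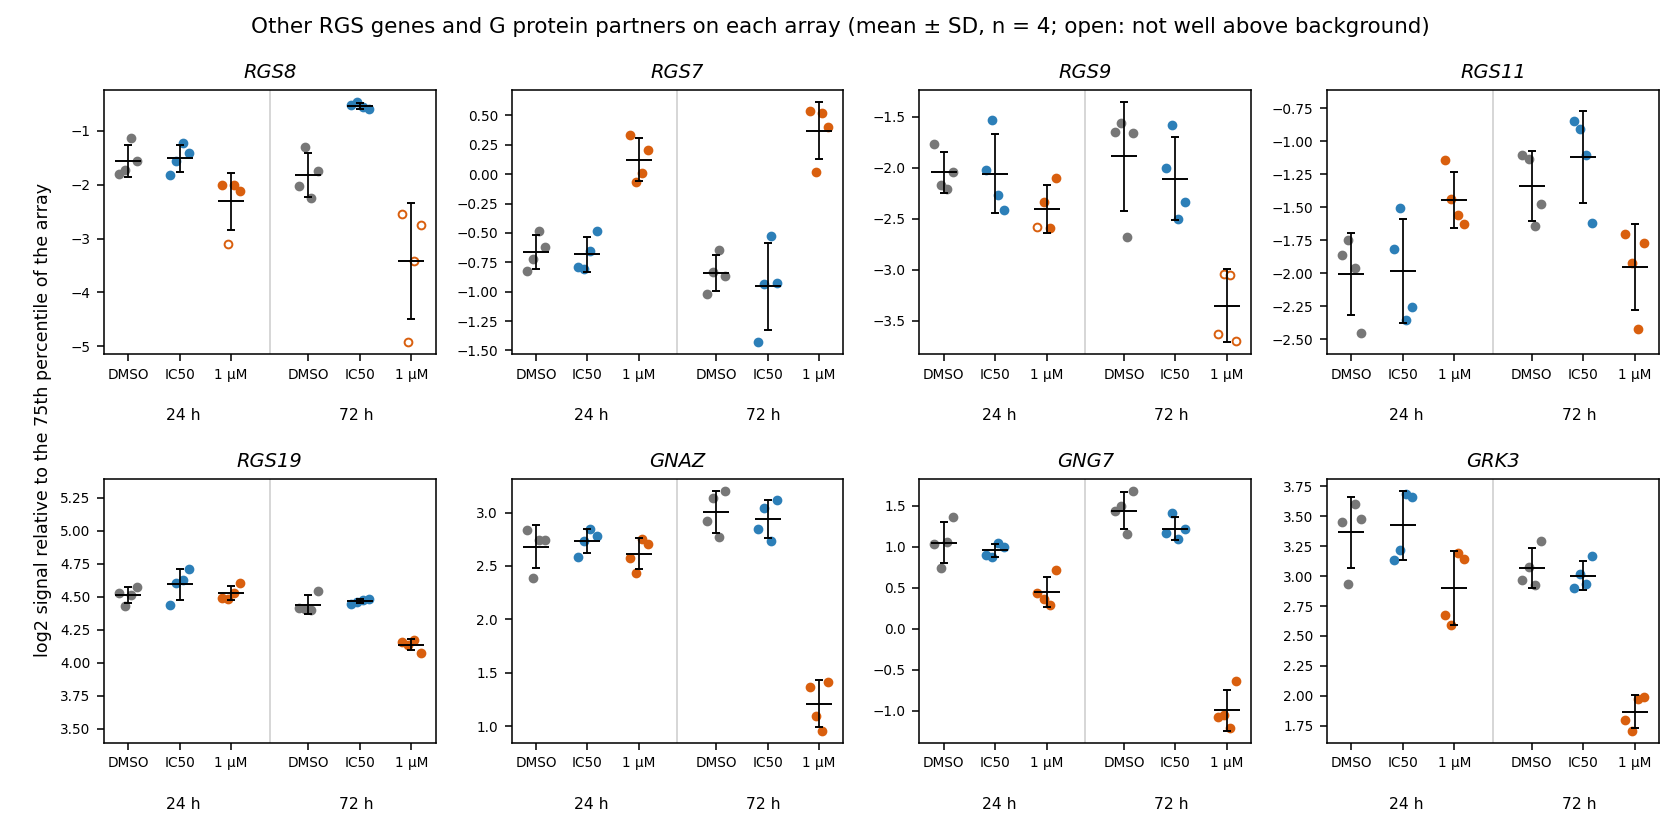
Each panel plots 1 of the 5 other tested RGS genes or 1 of 3 G protein partners, with the log2 signal, less the 75th percentile of each array, on the vertical axis (scales differ) and the 6 groups on the horizontal axis. Points are arrays, open where not well above background, and bars with whiskers are mean ± SD (n = 4). At 72 h *RGS8* stands highest in G-1 IC50 and is not well above background on any of the 4 G-1 1 µM arrays, *RGS7* stands higher in G-1 1 µM, and *GNAZ*, *GNG7* and *GRK3* stand lower there than in any other group.

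By list, G-1 1 µM at 72 h changed 3 upward and 4 downward of 9 tested Gα genes, 6 and 2 of 11 Gβ and Gγ genes, and 1 and 2 of 8 effector genes. It changed 2 and 2 of 6 receptor kinase and arrestin genes, 4 and 2 of 8 genes of other proteins with an RGS-like domain, and 2 and 1 of 6 genes of GPSM and R7-binding partners. Of 7 genes of the N-degron route, which degrades *RGS4*, *RGS5* and *RGS16* proteins, 4 rose and 1 fell. Over these lists 36 of 55 genes were called, beside the 66.2% of all genes above. G-1 IC50 called 1 of the 55 at 72 h, *GNB4* (0.41, SE 0.09, adjusted p = 0.0286), beside 0.885% of all genes. *GPER1*, the receptor that G-1 activates, read 2.08, 2.21, 2.03 and 2.13 in DMSO and 1.36, 1.19, 1.39 and 1.30 in G-1 1 µM at 72 h, and fell by 0.80 (SE 0.10, adjusted p = 4.57e-07), while the probes of *GPER1* disagreed, 1 of them differing by 0.40 (adjusted p = 0.263). With G-1 IC50 it differed from DMSO by -0.05 at 72 h (adjusted p = 0.930).

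The genes whose pattern over the 24 arrays was closest to a member were found by the root mean square difference of their centred log2 signals, among 12702 genes above background on all arrays. For *RGS4* they included *ANTXR2* (0.203), *LINC01291* (0.218), *RGMB* (0.232) and *RFX8* (0.241), against a variation of *RGS4* itself of 0.633. For *RGS2* they were *CDH6* (0.244), *HAS2* (0.266), *GBA3* (0.284), *LINGO2* (0.311) and *SERPINE2* (0.329), against 0.584. For *RGS16* they were *LINGO2* (0.341), *HAS2* (0.341), *LOC102723968* (0.356), *AKR1C1* (0.357) and *NEDD4L* (0.360), against 0.577, and so none was near. *HAS2*, a hyaluronan synthase gene, and *LINGO2* stood in the lists of both *RGS2* and *RGS16*. The arrays share treatments, slides and sessions, and the likeness is a description.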

How the data were processed

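RNA of 24 U251 cultures (6 groups of 4) was measured on single-colour Agilent arrays. The authors deposited Feature Extraction intensity values per spot (version 10.7.3.1 per the labels, 12.1.1.1 per the file headers), background-subtracted by that software, and a probe table in log2 units, which the authors had scaled to the 75th percentile. Groups were taken from the sample titles, because the duration tag contradicts the title for the 24 h group of G-1 IC50 and the 72 h group of 1 µM. The processed intensities were converted to log2 minus the 75th percentile of each array, without spots that the software flagged as outliers, and spots of a probe were averaged. Probes with a value on every array numbered 58118. A probe was tested where the 4 arrays of any group all had it well above background (22970 probes, 14235 genes). They were compared with limma 3.58.1 in R 4.3.3 (lmFit and eBayes, 6 group means over 24 arrays) and adjusted by Benjamini-Hochberg over all tested probes. The fit was tested on simulated data. Probes were named through the accession in the files and RefSeq tables. The number of arrays limits the precision. The members and gene lists were chosen with earlier results of these data known. All 10 members were named, as were genes of the partner lists that passed with a fold change over 2 against DMSO, and *GPER1*. *GNB4*, *RGS11*, *RGS19* and the untested RGS genes were named after their values were seen, as single calls or remaining genes. Alternatives were other scalings, background correction, filters, probes, fits, blocks, the t-test of the methods and arrays left out. After the median of each probe over the arrays was subtracted from the values used here, the deposited log2 values differed from them by a median of 0.0014. The largest difference was 0.0058. 1 gene among those closest in pattern to *RGS4* is not reported here.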

Additional observations from a re-analysis of the deposited data

Results flagged for a closer look

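1 array stood apart within its group. *RGS16* read -1.07 on replicate 1 of G-1 IC50 at 24 h, with a gap to the next array of 0.841 of the range of its group. 60 groups of 4 arrays were examined in this way, and chance alone flags about 1 in 20. The effect of G-1 1 µM differed between durations, by the interaction test in limma, for *RGS4* (1.43), *RGS10* (0.29) and *RGS12* (-0.80), with adjusted p of 2.08e-05, 0.0394 and 0.0204. *RGS17* (1.98, adjusted p = 1.20e-05) was flagged too, but its probe was tested only through the G-1 1 µM arrays at 72 h. Its interaction is therefore not independent of that filter, and under normexp correction it was 0.51.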

How the results depend on the processing

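No direction of a called result reversed. Counts of members called that changed by over 1.5 times, with some others, were as follows. For G-1 IC50 at 24 h the 1 call became 0 with quantile normalization, the 50th percentile, normexp correction, no filter on dim probes, the deposited log2 table, the arrays compared alone or the slide as a block. For G-1 IC50 at 72 h the 1 call became 0 with the arrays compared alone. For G-1 1 µM at 24 h the 1 call became 3 with normexp correction and 2 with the arrays compared alone or any probe of a gene. Between the doses at 24 h the 2 calls became 1 with the 50th percentile, with probes above background on all arrays and with the arrays compared alone. For DMSO over time the 1 call became 0 with the 50th percentile, no filter and the arrays compared alone. For the interaction of the higher dose with duration the 4 calls became 2 without the filter and 3 with the 50th percentile (2 higher and 1 lower), and for G-1 1 µM over time 6 became 3 without the filter, 4 with the 50th percentile and 5 with normexp correction. With a fold change above 2, and with the t-test of the methods with or without adjustment, 2 members remained in number for G-1 1 µM against DMSO and against G-1 IC50 at 72 h and for G-1 1 µM over time, and 0 for DMSO over time, for either dose against DMSO at 24 h, between the doses at 24 h and for G-1 IC50 at 72 h. The fold change threshold left 2 for the interaction. Leaving out arrays singly, the counts ran from 0 to 1 (G-1 IC50 at 24 h), from 1 to 2 (G-1 1 µM at 24 h), from 1 to 2 (between the doses at 24 h), from 0 to 1 (DMSO over time), and within 1 call of the count of each remaining comparison, except 4 in place of 6 for G-1 1 µM over time. The causes were not tested.

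Arrays of 1 duration with the same replicate number correlated in their deviations from the group means by between -0.11 and 0.48. Their median was 0.19 (24 pairs, 17 over 0.1), beside -0.05 for arrays of 1 duration with different numbers (72 pairs, 15 over 0.1). Same-numbered arrays were thus more alike, but the fit used for the results above did not take the numbers as pairs. Blocks by number were run as alternatives. With the replicate number as a block, G-1 1 µM at 24 h called 2 members, *RGS2* being the one gained. With the block within each duration it also called 2, the comparison of doses at 24 h called 4 and the interaction of G-1 IC50 with duration 1 (*RGS2*, adjusted p = 0.0360).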
